A study of Mus musculus with 18 samples.

Results

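The genes that respond to the stress factor ATF4, with the enzymes of serine synthesis and the cytosolic tRNA synthetases, made up a module of 44 genes of the 24391 in the deposited tables, listed by name and read in all 18 libraries. It was divided into 6 transcription factors, 10 genes of amino acid synthesis, 7 transporters, 12 synthetases and 9 stress effectors and other targets. All libraries came from E2-10HA, a mouse T cell hybridoma, which is an immortal fusion line and not a primary T cell. In the knockdown experiment, 3 libraries were from cells infected with a plasmid carrying 1 hairpin against L3MBTL3 (L3MBTL3 shRNA) and 3 from cells with a scramble hairpin, both in pLKO.1 plasmids and under puromycin. In the rescue experiment, every group was depleted of RBPJ and kept under Blasticidin, and cells received the empty vector, Flag-tagged mouse RBPJ WT or Flag-tagged mouse RBPJ F261A/A284V, from pMY-Bio plasmids (the RBPJ forms labelled CRr), with 4 libraries each. All cells grew in IMDM with little serum and added nonessential amino acids. RBPJ is the DNA-binding factor of the Notch pathway, and L3MBTL3 is a chromatin protein described as one of its partners. The comparisons ask how the stress module stood when L3MBTL3 was targeted and when either form of RBPJ was returned.

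The integrated stress response is the program through which cells adapt protein synthesis to a shortage of amino acids, to unfolded proteins and to other stresses. Kinases that sense these stresses phosphorylate the initiation factor eIF2, translation falls in general, and the mRNA of the transcription factor ATF4 is translated more. ATF4 pairs with C/EBP factors on composite promoter elements and raises the genes that make, import and charge amino acids, among them the serine synthesis enzymes and the cytosolic tRNA synthetases. Proliferating T cells draw on this program because growth consumes serine, one-carbon units, cysteine and large neutral amino acids.

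The libraries held between 3553505 and 7921533 reads, and scramble replicate 3 was the shallowest knockdown library (4882485 reads, with the other 5 between 5822710 and 6129134). L3mbtl3 itself, the targeted gene, was at 394, 371 and 370 normalized reads with the hairpin and at 467, 447 and 352 with scramble (log2 difference -0.15, adjusted p = 0.402). Scramble replicate 3 lay below every hairpin library, so the directions given here follow the labels, and "hairpin" means the libraries labelled that way. Rbpj was higher with RBPJ WT (log2 1.31, adjusted p = 0.000475) and with the mutant (log2 1.48, adjusted p = 0.00114) than with the empty vector. All 6 T cell markers had values of at least 10 in every library. The summed B cell, NK and stromal markers stayed at or below 4.62 normalized reads. The 5 myeloid markers summed to 236 to 305 with the hairpin and 333 to 375 with scramble. Of these 5, 1 was above the filter, Cd68 (log2 -0.38, adjusted p = 0.0844, and 0.00781 paired). In the rescue they summed to 149 to 178 with RBPJ WT, 186 to 219 with the empty vector and 189 to 244 with the mutant. Of 3 above the filter there, Itgam was lower with RBPJ WT than with the empty vector (log2 -1.74, adjusted p = 0.105, and 5.17e-05 paired). Itgam was higher with the mutant than with RBPJ WT (log2 1.09, adjusted p = 0.603, and 0.00508 paired). Cd68 was also higher with the mutant than with RBPJ WT (log2 0.47, adjusted p = 0.549, and 0.0102 paired). The part of the myeloid markers in the results was not tested. Rescue replicates 3 and 4 (3553505 to 4239479 reads) stood apart from replicates 1 and 2 (5923799 to 7921533 reads). Mutant replicates 3 and 4 were as alike as repeat counts of 1 sample (chi-square per degree of freedom 0.823), as were replicates 1 and 2 of RBPJ WT (0.721) and of the empty vector (0.859), so each such pair was also counted as 1 sample. In bulk RNA, fewer cells of one kind and less RNA per cell cannot be told apart.

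Of the 44 members, 41 passed the filter on low values in the knockdown table (10 or more normalized reads in 3 or more libraries) and 42 in the rescue table (10 or more in 4 or more libraries). Cbs, which joins homocysteine to serine, stayed between 0 and 3.28 in all libraries, and Vldlr, a lipoprotein receptor gene, between 0 and 1.37. Atf3, a stress-induced repressor, was too low for the knockdown test, at 8.42, 3.83 and 11.1 with scramble and 1.92, 0.98 and 2.88 with the hairpin, and was tested in the rescue table. The other 41 members passed the filter in both tables. Per kilobase of exon, the highest scramble means were those of Ddit3 (686 normalized reads per kilobase), which encodes the stress factor CHOP, Eprs (619), the bifunctional glutamyl-prolyl synthetase, Ddit4 (604), an inhibitor of mTORC1, and Atf4 itself (597). By class the median level per kilobase was 412 for the synthetases, 364 for amino acid synthesis, 347 for the transporters, 232 for the effectors and 218 for the transcription factors. Slc7a11, the light chain of the cystine importer, was the lowest of the 41 members tested in the knockdown (17.8 per kilobase with scramble).

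ATF4 and C/EBP factors share a composite element whose core was searched as TGATGNAA on both strands of the RefSeq promoter window (GRCm38.p6, from 250 bases before to 50 after the start). A window was at hand for 36 members, and 14 of them held the core (38.9%), against 4.51% of 27025 genes and 3.97% of 32851 promoter windows. The 14 were spread over the classes: Atf3; Asns and Pycr1; Slc7a11 and Slc1a4; the synthetase genes Aars, Gars, Iars, Tars and Yars; and Chac1, Trib3, Nupr1 and Vldlr. Aars and Slc7a11 held it 2 times each. The following stretches show the core, in capitals and read 5′ to 3′ along the gene's strand, in 2 effector genes with large knockdown differences, a tRNA synthetase (Aars, 1 of its 2 cores), the asparagine synthetase gene, Slc7a11 with both of its cores, the member called in a rescue fit and the factor gene Atf3. A core on the opposite strand reads as TTGCATCA here.
Chac1 (chr2:119351029-119351076, + strand): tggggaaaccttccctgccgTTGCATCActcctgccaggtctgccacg
Nupr1 (chr7:126625553-126625600, - strand): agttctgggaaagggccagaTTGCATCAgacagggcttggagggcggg
Aars (chr8:111033710-111033757, + strand): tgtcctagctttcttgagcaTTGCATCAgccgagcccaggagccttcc
Asns (chr6:7693210-7693252, - strand): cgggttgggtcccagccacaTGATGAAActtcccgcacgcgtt
Slc7a11 (chr3:50443633-50443699, - strand): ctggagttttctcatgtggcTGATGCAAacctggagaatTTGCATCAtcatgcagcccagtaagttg
Pycr1 (chr11:120643824-120643871, - strand): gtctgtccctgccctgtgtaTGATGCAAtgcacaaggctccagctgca
Atf3 (chr1:191183416-191183463, - strand): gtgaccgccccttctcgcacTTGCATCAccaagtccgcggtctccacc

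The core of the RBPJ site, searched as GTGGGAA on both strands, was in 1 of the 36 windows, that of Asns (2.78%), against 7.25% of genes. These matches describe letters in a window and not bound sites. Among tested genes of the knockdown, the 12 members with the ATF4 core had a median log2 difference of -0.28 and the 21 members with a window but no core a median of -0.22, against -0.00428 in the 237 genes with the core and -0.00133 in the 8413 without it.

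In the libraries labelled L3MBTL3 shRNA, 4 of the 41 tested members fell and none rose at an adjusted p under 0.05, while 1.11% of the 11586 genes tested fell and 2.21% rose. The members that fell were Cth, which makes cysteine from cystathionine, the mitochondrial one-carbon enzyme gene Mthfd2, and the transporter genes Slc1a4 and Slc7a1. The shift was wider than these calls: 39 of 41 members had a lower mean with the hairpin, the median log2 difference was -0.23 against -0.01 over all genes tested, and 30 members had an unadjusted p under 0.05 in limma, all of them lower (25.5% of all genes passed it in either direction). In 32 members every hairpin library lay below every scramble library, as did 17.1% of all genes, and in 2 members, Slc1a5 and Stc2, every hairpin library lay above (18.1% of all genes).

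Libraries of the same replicate number tended to vary together (correlation of deviations from group means 0.24 to 0.54, others -0.47 to 0.33). The ranges overlap, and the labels give replicate numbers without naming pairs. In a paired fit with the replicate number as a term, 8.71% of all genes fell and 13.5% rose. Of the 41 members, 31 fell in it and none rose. These were all 12 synthetases, 6 of 9 amino acid synthesis genes, 5 of 7 transporters, 3 of 5 transcription factors and 5 of 8 effectors. Within the replicate pairs, 37 members were lower with the hairpin in 3 of 3 pairs (28.8% of all genes were) and 2 were higher in 3 of 3 (29.4%). The median member difference was -0.20 in pair 1, -0.17 in pair 2 and -0.37 in pair 3.

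**Figure D1:**
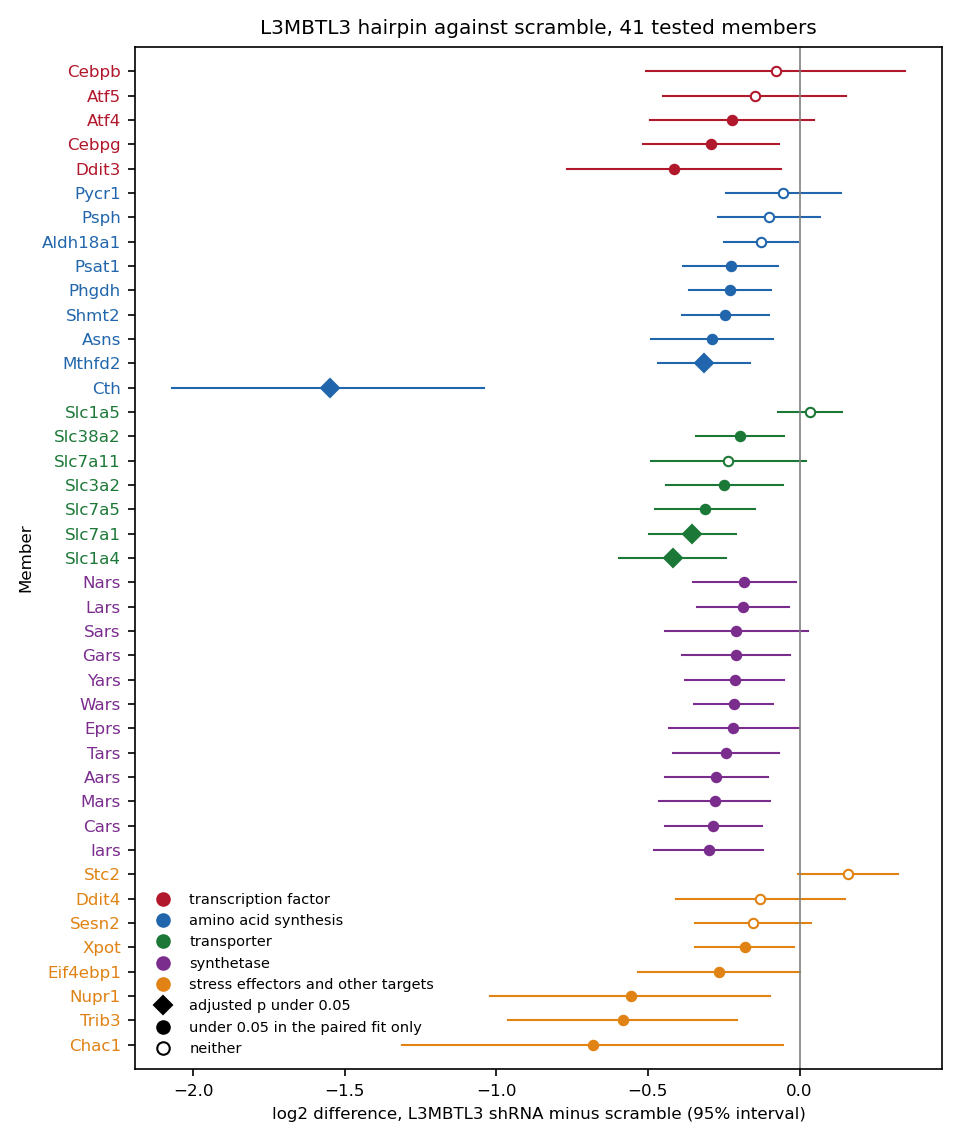
Each point is the log2 difference of 1 tested member between the 3 L3MBTL3 shRNA and the 3 scramble libraries on the log2(value + 1) scale, with its 95% interval from the unpaired fit as a line and colour by class. Cth stands at -1.55, most members lie between -0.10 and -0.42, and Slc1a5 and Stc2 are to the right of 0.

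Among the transcription factors, Atf4 was 901, 935 and 1253 normalized reads in scramble replicates 1, 2 and 3, and 829, 864 and 927 with the hairpin in the same order. The groups overlapped narrowly, since hairpin replicate 3 exceeded scramble replicate 1, and scramble replicate 3 stood above the other 5 libraries. The log2 difference of Atf4 was -0.22 (SE 0.118, adjusted p = 0.272), and the paired fit called it lower (adjusted p = 0.0321). Without scramble replicate 3 its difference was -0.07. ATF4 activity depends largely on translation and protein stability, so its transcript gives one layer of it only.

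Ddit3 was 536, 540 and 755 with scramble and 387, 446 and 534 with the hairpin. The hairpin libraries lay below the scramble libraries, hairpin replicate 3 only just, and the log2 difference was -0.41 (adjusted p = 0.146; 0.00136 in the paired fit) and -0.25 without scramble replicate 3. Cebpg, a dimer partner of ATF4, behaved alike, at 1047, 1080 and 1332 against 864, 948 and 999 (log2 -0.29, adjusted p = 0.117 and 0.00412 when paired). Atf5 (log2 -0.15) and Cebpb (log2 -0.08) overlapped between the groups and were called in neither fit; without scramble replicate 3 the difference of Cebpb turned to 0.12. Exons of Ddit3 and Mars overlap on opposite strands over 68 bases, and those of Atf5 overlap Il4i1 and Nup62 over 82 bases, and no source used here says whether counting used strand.

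Cth had the largest difference of the module. It was 160, 149 and 257 in the scramble libraries and 50.9, 68.7 and 67.2 with the hairpin, so that the highest hairpin value was under the lowest scramble value by a wide margin. Its mean was 189 ± 59.2 with scramble and 62.3 ± 9.84 with the hairpin (SD, n = 3), and the log2 difference was -1.55 (SE 0.223, adjusted p = 0.0314; 95% interval -2.07 to -1.04). Scramble replicate 3 was again the highest library, and without it the difference was -1.31. Cth works in the transsulfuration route, whose first enzyme gene, Cbs, was not detected above 0.96 normalized reads in any knockdown library.

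In serine and one-carbon metabolism, the 3 enzymes that make serine from a glycolytic intermediate are encoded by Phgdh, Psat1 and Psph. Phgdh was 711, 724 and 795 with scramble and 635, 645 and 619 with the hairpin (log2 -0.23, adjusted p = 0.068; 0.018 paired). Psat1 was 988, 1064 and 1168 against 891, 942 and 912 (log2 -0.23, adjusted p = 0.0936; 0.0154 paired). Psph overlapped (log2 -0.10, adjusted p = 0.404), and its exons share 452 bases with Cct6a on the other strand.

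The mitochondrial enzymes that take the one-carbon unit from serine were lower as well. Mthfd2 fell from 873, 926 and 1018 to 728, 771 and 762, without overlap (log2 -0.31, SE 0.0662, adjusted p = 0.0488). Shmt2 was 878, 969 and 1015 against 792, 807 and 811 (log2 -0.25, adjusted p = 0.0671; 0.00923 paired). Asns, which makes asparagine, was 1047, 1055 and 1308 against 890, 939 and 948 (log2 -0.29, adjusted p = 0.0968; 0.00719 paired). The proline genes Aldh18a1 (log2 -0.13) and Pycr1 (log2 -0.05) were called in neither fit.

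Among the transporters, Slc1a4, a carrier of serine, alanine and other small neutral amino acids, fell from 501, 474 and 520 to 339, 385 and 395 (log2 -0.42, SE 0.0765, adjusted p = 0.0379). Slc7a1, the carrier of cationic amino acids, fell from 1712, 1616 and 1760 to 1240, 1375 and 1365 (log2 -0.35, SE 0.0626, adjusted p = 0.0348). In both, every hairpin library was below every scramble library, and scramble replicate 3 was close to scramble replicate 1.

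Slc7a5 and Slc3a2 encode the light and heavy chain of the large neutral amino acid exchanger. Slc7a5 was 1486, 1492 and 1694 against 1169, 1311 and 1277 (log2 -0.31, adjusted p = 0.0545; 0.00278 paired), and Slc3a2 was 1100, 1113 and 1352 against 946, 1021 and 1023 (log2 -0.25, adjusted p = 0.122; 0.0129 paired). Slc1a5, the glutamine carrier, did not share this direction: it was 960, 965 and 954 with scramble and 973, 976 and 1001 with the hairpin (log2 0.04, SE 0.0462, adjusted p = 0.645), an interval of -0.07 to 0.14. Slc38a2, a carrier of small neutral amino acids, had a log2 difference of -0.20 and was called lower when paired (adjusted p = 0.0187). Slc7a11 was 194, 174 and 159 against 148, 157 and 141, without overlap by a narrow margin, and was called in neither fit (log2 -0.23, adjusted p = 0.227; 0.147 paired).

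The synthetases join each amino acid to its tRNA, and their differences covered the narrowest range of the 5 classes. In all 12, every hairpin library lay below every scramble library, the log2 differences ran from -0.30 (Iars) to -0.18 (Nars) around a median of -0.22, and limma called none in the unpaired fit, while 11 had an unadjusted p under 0.05. edgeR called none either and DESeq2 called 4 lower (Aars, Cars, Iars and Mars). Eprs, the most abundant, was 2784, 2814 and 3506 with scramble and 2521, 2635 and 2629 with the hairpin (log2 -0.22, adjusted p = 0.191; 0.0373 paired). Iars was 1292, 1250 and 1485 against 1014, 1104 and 1149 (adjusted p = 0.0707; 0.00317 paired). The other 10 were Aars, Cars, Gars, Lars, Mars, Nars, Sars, Tars, Wars and Yars, which charge alanine, cysteine, glycine, leucine, methionine, asparagine, serine, threonine, tryptophan and tyrosine. Aars shares 1326 exon bases with Exosc6 on the same strand, so its value is uncertain to that extent. Without scramble replicate 3 the synthetase differences ran from -0.23 to -0.08, and that of Eprs was -0.11.

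Among the effectors, Chac1, which degrades glutathione, was 385, 332 and 562 with scramble and 202, 215 and 397 with the hairpin. The groups overlapped because hairpin replicate 3 exceeded scramble replicates 1 and 2, and the log2 difference of -0.68 (SE 0.274) had an adjusted p of 0.167. The paired fit, which sets replicate 3 against replicate 3, called Chac1 lower (adjusted p = 0.000452). Trib3, a pseudokinase that restrains ATF4 and AKT, was 931, 814 and 1227 against 565, 614 and 795 (log2 -0.58, adjusted p = 0.0817; 0.000253 paired). Nupr1, a small stress-induced chromatin cofactor, was 154, 141 and 230 against 102, 110 and 139 (log2 -0.56, adjusted p = 0.137; 0.00759 paired), and without scramble replicate 3 its difference was -0.34.

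In these 3 effector genes replicate 3 was the highest of its group in both groups. Xpot, the tRNA exporter, had a log2 difference of -0.18 and Eif4ebp1, a brake on cap-dependent translation, of -0.27, both called lower only when paired; without scramble replicate 3 they were -0.12 and -0.12. Stc2, a secreted glycoprotein that is also an ATF4 target, was 448, 423 and 385 with scramble and 463, 454 and 483 with the hairpin (log2 0.16, SE 0.0718, adjusted p = 0.208). Its hairpin libraries were all higher, opposite to the rest of the class, and its interval ran from -0.00492 to 0.32. Ddit4 (log2 -0.13) and Sesn2 (log2 -0.15) were called in neither fit, and the difference of Ddit4 turned to 0.03 without scramble replicate 3.

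Scramble replicate 3 was the highest of the 6 knockdown libraries for 37 of 41 members (35.8% of all genes were highest there) and the lowest for 2, Slc1a5 and Stc2 (34.2%). That library was also the shallowest, and in it genes of high level ran higher in general: against the other 5 libraries, the median log2 difference of all genes with a mean from 800 to 1600 was 0.13, and that of the 24 members in that range was 0.33. Without it, 14 members fell and none rose, where 3.34% of the 11528 genes then tested fell, the median member difference was -0.16, and 32 members had hairpin libraries all below the remaining scramble libraries (21.9% of all genes), while 22.5% of all genes had them all above. Leaving it out made the difference smaller by over 1.5 times in 18 of the 41 members (among them Atf4, Ddit3, Cebpg, Asns, Slc3a2, Eprs, Nupr1 and Stc2), turned its sign in Cebpb and Ddit4 and moved the other 21 by less, including the 4 that were called. Across levels, the hairpin difference of all genes in the range from 800 to 1600 was -0.06 in the median with all libraries and -0.02 without scramble replicate 3, against -0.23 and -0.16 for the members. Whether depth had a part in the member differences was not tested.

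The calls depended on which libraries and which method were used. DESeq2 on the recovered reads called 10 members lower (1.72% of all genes), edgeR 5 (1.31%), limma after quantile scaling 15 (3.25%) and limma after cyclic loess scaling 9 (1.81%), with none higher. None of the 41 members was called when hairpin replicate 1, 2 or 3 or scramble replicate 2 was left out. Without scramble replicate 1, 3 members were called (338 of all genes, either direction), and without scramble replicate 3, 14 were (1032 of all genes). Over all genes, leaving out hairpin replicate 1, hairpin replicate 2 or scramble replicate 2 left no call at all, and leaving out hairpin replicate 3 left 5.

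**Figure D2:**
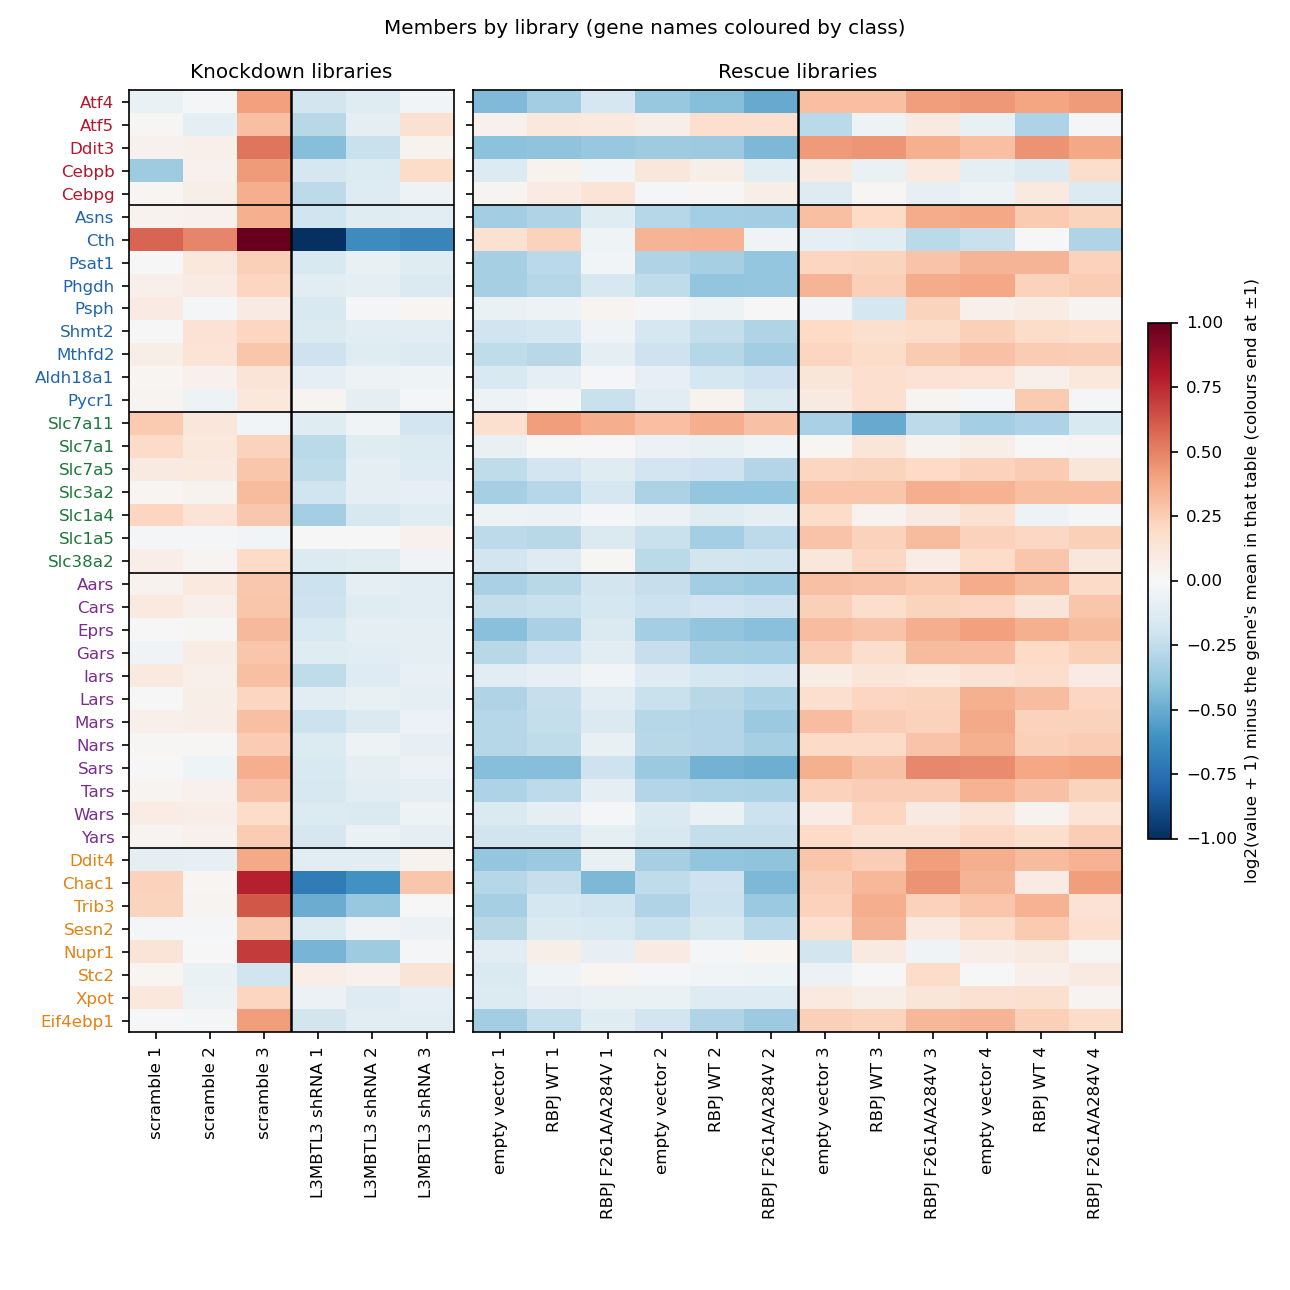
Each cell is the log2(value + 1) of 1 member in 1 library minus that member's mean over the libraries of its table, for the 41 members tested in both tables, with members in rows grouped by class and the knockdown (left) and rescue (right) libraries in columns. Scramble replicate 3 is red in nearly all rows, the hairpin columns are mostly blue, and the rescue columns divide at the black line between replicates 1 and 2 and replicates 3 and 4, with Slc7a11 and Cth running the other way.

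Genes next to the module in function, listed by name, were read in the same way in the knockdown. None of the 8 cytosolic synthetases outside the module was called unpaired (3 with an unadjusted p under 0.05) and 2 were lower when paired (Rars and Vars). Their median was -0.10, and -0.08 without scramble replicate 3. None of the 17 mitochondrial synthetases was called unpaired by limma (3 with an unadjusted p under 0.05), while edgeR and DESeq2 called Vars2 higher. The median of these 17 was 0.17, and 0.08 without scramble replicate 3. That library was the lowest of the 6 for 12 of the 17 (34.2% of all genes). Among 16 genes of the eIF2 kinases, eIF2 phosphatase subunits and eIF2 and eIF2B themselves, none was called unpaired (5 with an unadjusted p under 0.05) and 3 rose and 3 fell when paired. The kinase gene Eif2ak2, which senses double-stranded RNA, was 444, 359 and 250 with scramble and 656, 570 and 490 with the hairpin (log2 0.73, adjusted p = 0.072; 0.000241 paired). The phosphatase subunit gene Ppp1r15a, itself an ATF4 pathway target, was 626, 581 and 1114 against 448, 453 and 700 (log2 -0.50, adjusted p = 0.256; 0.00051 paired).

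The other arms of the unfolded protein response (ATF6 and XBP1 branches) had no unpaired call among 18 genes (7 with an unadjusted p under 0.05). DESeq2 called Ern1 and Herpud1 lower, and the paired fit called 6 lower. The median was -0.18, and -0.08 without scramble replicate 3. In 13 of the 18 every hairpin library lay below every scramble library, and in 0 above. Within the replicate pairs, 16 were lower with the hairpin in all pairs and 0 higher, so the breadth seen in the members was not particular to them. In that list Ern1, the sensor IRE1, had a log2 difference of -0.39 (adjusted p = 0.089; 0.00115 paired) and Herpud1 one of -0.35 (adjusted p = 0.0816; 0.00266 paired). Of 17 other folate, serine and methionine cycle genes, none was called unpaired (1 with an unadjusted p under 0.05) and Ahcy was lower when paired. Of 11 redox genes of the NRF2 pathway, none was called unpaired (2 with an unadjusted p under 0.05) and Keap1 was higher when paired. In the cell cycle list, 5 of 18 genes fell unpaired (Cdc20, Cdc6, E2f2, Mcm3 and Rrm2) and 16 when paired. The list had a median of -0.24, and of -0.205 without scramble replicate 3. Its hairpin libraries lay entirely below in 16 genes and above in 0, and 17 were lower in all pairs and 1 higher. The counts entirely below and above were 4 and 0 for the cytosolic synthetases outside the module and 0 and 2 for the mitochondrial ones. They were 4 and 3 for the eIF2 list, 2 and 0 for the folate, serine and methionine list and 1 and 2 for the NRF2 list. The part of the cell cycle in the module's differences was not tested.

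Returning RBPJ left the module without a called change in the fit by group alone. With RBPJ WT against the empty vector, 0 of 42 members were called (0.248% of 11691 genes were), the median log2 difference was -0.01 in the members and -0.01 over all genes, and no member had an unadjusted p under 0.05 (3.4% of genes did). With RBPJ F261A/A284V against the empty vector, 0 of 42 were called (0.0171% of genes) and none had an unadjusted p under 0.05 (2.05%), with a median of 0.01. With the mutant against RBPJ WT, 0 of 42 were called (0.316% of genes) and 1, Pycr1, had an unadjusted p under 0.05 (4.62%), with a median of 0.03. edgeR and DESeq2 on the recovered reads called 0 members in each of the 3 comparisons as well, where edgeR called 0.24%, 0.0171% and 0.248% of genes and DESeq2 0.513%, 0.0599% and 0.667%. The paired fit called 0 members too (2.23%, 0.65% and 4.74% of genes). In none of the comparisons did the 4 libraries of any of the 42 tested members lie entirely above or below the 4 of the other group, while 1.46% of all genes were above and 1.87% below with RBPJ WT against the empty vector, 0.881% and 1.04% with the mutant against the empty vector, and 1.94% and 1.75% with the mutant against RBPJ WT. For most members this could not have come out otherwise. In 31 of them every library of replicates 3 and 4 lay above every library of replicates 1 and 2, and in Slc7a11 every one lay below. Each group held libraries from both sides, so no group could stand entirely apart in these members, and the count carries no result on RBPJ for them. Cbs, too low to test, was 3.28, 0.68, 1.37 and 1.53 with the empty vector and 0 in all 4 RBPJ WT libraries. The comparisons with the empty vector share those libraries, and those with the mutant share its libraries.

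The spread in that fit was dominated by the divide between replicates 1 and 2 and replicates 3 and 4. With a term for this divide, 95% intervals narrowed. For 41 of 42 members they stayed within 0.5 on the log2 scale in each comparison, the exception being the lowly expressed Atf3. This fit counted near-identical libraries as separate samples, so its intervals may be too narrow. For the synthetases the bounds ran from -0.17 to 0.14 with RBPJ WT against the empty vector, from -0.15 to 0.16 with the mutant against the empty vector and from -0.12 to 0.21 with the mutant against RBPJ WT. In that fit 0, 0 and 1 of 42 members were called in the 3 comparisons (2.42%, 0.693% and 5.12% of all genes). Its unadjusted limma p was under 0.05 for Sesn2, Trib3, Pycr1 and Slc1a4 (0.0162 to 0.0351) with RBPJ WT against the empty vector. It was also under 0.05 for Stc2, Cth and Atf5 with the mutant against the empty vector. With the mutant against RBPJ WT this held for Pycr1, Cth, Trib3, Sesn2 and Ddit4. The shares of all genes at that threshold in this fit are not reported here. A test of whether the comparisons differed across the divide called no member in any of the 3 (lowest adjusted p = 0.109), where 0.0171%, 0.128% and 0.573% of all genes were called. At an unadjusted p under 0.05 it counted 1, 1 and 6 of the 42 members, against 3.16%, 10.2% and 13% of all genes.

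**Figure D3:**
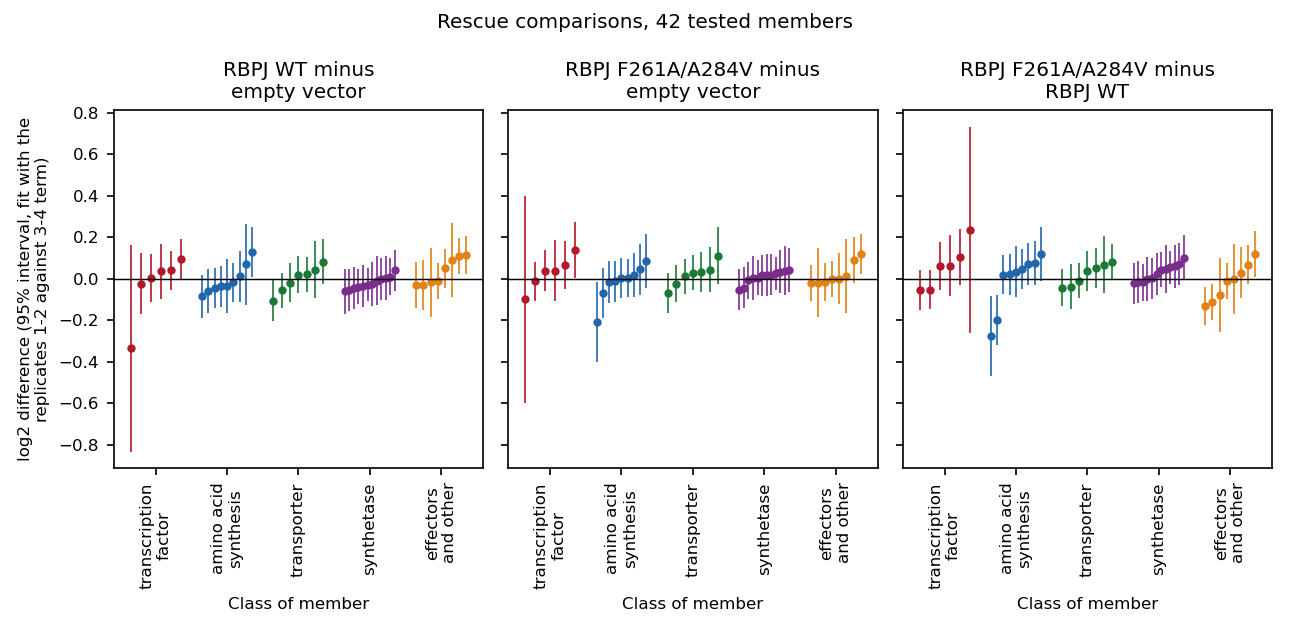
Each point is the log2 difference of 1 of the 42 tested members in 1 of the 3 rescue comparisons, grouped and coloured by class and sorted within it. Lines are 95% intervals from the fit that includes the divide between replicates. That fit counted near-identical libraries as separate samples, so the intervals may be too narrow. The synthetases keep within -0.06 and 0.10, Atf3 has the widest interval, and Cth and Pycr1 are the lowest with the mutant against RBPJ WT.

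Atf4 was 621, 649, 1039 and 1139 in empty vector replicates 1 to 4. It was 665, 627, 1043 and 1112 with RBPJ WT and 750, 596, 1127 and 1135 with the mutant. Each group held 2 low and 2 high libraries at the same replicate numbers, and between groups the log2 difference was 0.00499 for RBPJ WT (95% interval with the divide as a term -0.11 to 0.12) and 0.07 for the mutant (-0.05 to 0.18) against the empty vector.

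Pycr1, which makes proline, was the member called in the fit with that term, lower with the mutant than with RBPJ WT (log2 -0.20, adjusted p = 0.0461). It was 239, 247, 271 and 290 with RBPJ WT, 207, 218, 246 and 238 with the mutant and 233, 224, 257 and 240 with the empty vector. The mutant was below RBPJ WT within each pair of replicates, by 0.19 in replicates 1 and 2 and by 0.21 in replicates 3 and 4 on the log2 scale. The paired fit did not call it (adjusted p = 0.0665), nor did a fit in which near-identical libraries counted once (0 members, 1.96% of all genes). With cyclic loess scaling and the divide as a term, Pycr1, Sesn2 and Trib3 were called lower (6.33% of all genes).

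Cth was 106, 120, 89 and 81 with the empty vector, 111, 120, 87.9 and 94.2 with RBPJ WT and 91.7, 92.6, 78.5 and 76.4 with the mutant. Within replicates 1 and 2 and within replicates 3 and 4 the mutant libraries were below those of both other groups. The log2 difference from RBPJ WT was -0.28, with an interval of -0.47 to -0.08 in the fit with the divide as a term (adjusted p = 0.093), and that from the empty vector was -0.21 (adjusted p = 0.373), so neither was called. Trib3 (log2 -0.13) and Sesn2 (log2 -0.11), an inhibitor of mTORC1, were not called in that fit for the mutant against RBPJ WT (adjusted p = 0.0979 and 0.134). Slc1a4 had a log2 difference of -0.11 with RBPJ WT against the empty vector (adjusted p = 0.312 in that fit). Atf3 was 31.5, 25.2, 24.6 and 35.2 with the empty vector, 30.7, 33.6, 12.7 and 19.7 with RBPJ WT and 23.1, 24.7, 32.3 and 27.9 with the mutant. RBPJ WT replicates 3 and 4 were the lowest of these, at low counts, and no comparison of Atf3 was called.

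The largest differences of the module among the rescue libraries lay across the divide between replicates. It is a feature of the replicate numbers and not a labelled condition, and it is described here without a test. In 31 of 42 members every library of replicates 3 and 4 lay above every library of replicates 1 and 2 (26.2% of all genes tested did), and in 1, Slc7a11, every one lay below (21.3% of all genes). The median log2 difference was 0.42 for the members and -0.02 for all genes. In 35 members the difference was positive in each of the 3 groups, and in 3 (Atf5, Cth and Slc7a11) negative in each.

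All 12 synthetases were entirely higher, with a median of 0.50, and Sars had the largest difference of all members: it ran from 951 to 1155 in replicates 1 and 2 and from 1636 to 1859 in replicates 3 and 4 (log2 0.80). Ddit3 ran from 334 to 357 and then from 561 to 624 (log2 0.78). Atf4 ran from 596 to 750 and then from 1039 to 1139 (log2 0.76). These ranges are far apart, with nothing between them.

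The amino acid synthesis genes Phgdh (log2 0.60), Asns (0.58) and Psat1 (0.55) were likewise entirely higher, as were 6 of 9 tested genes of that class. Of the transporters, 5 of 7 were entirely higher, led by Slc3a2 (log2 0.63), and of the effectors 6 of 8, led by Ddit4 (0.65) and Chac1 (0.63). Among the transcription factors only Atf4 and Ddit3 were entirely higher, while Cebpg (log2 -0.10) and Cebpb (0.02) hardly differed.

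Slc7a11 ran against its heavy chain Slc3a2. It was 306, 336, 367, 351, 352 and 335 in replicates 1 and 2 of the empty vector, RBPJ WT and the mutant in that order, and 218, 216, 192, 221, 228 and 245 in replicates 3 and 4, a log2 difference of -0.63. Cth was lower too (log2 -0.33), with ranges that overlapped (91.7 to 120 and 76.4 to 94.2).

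**Figure D4:**
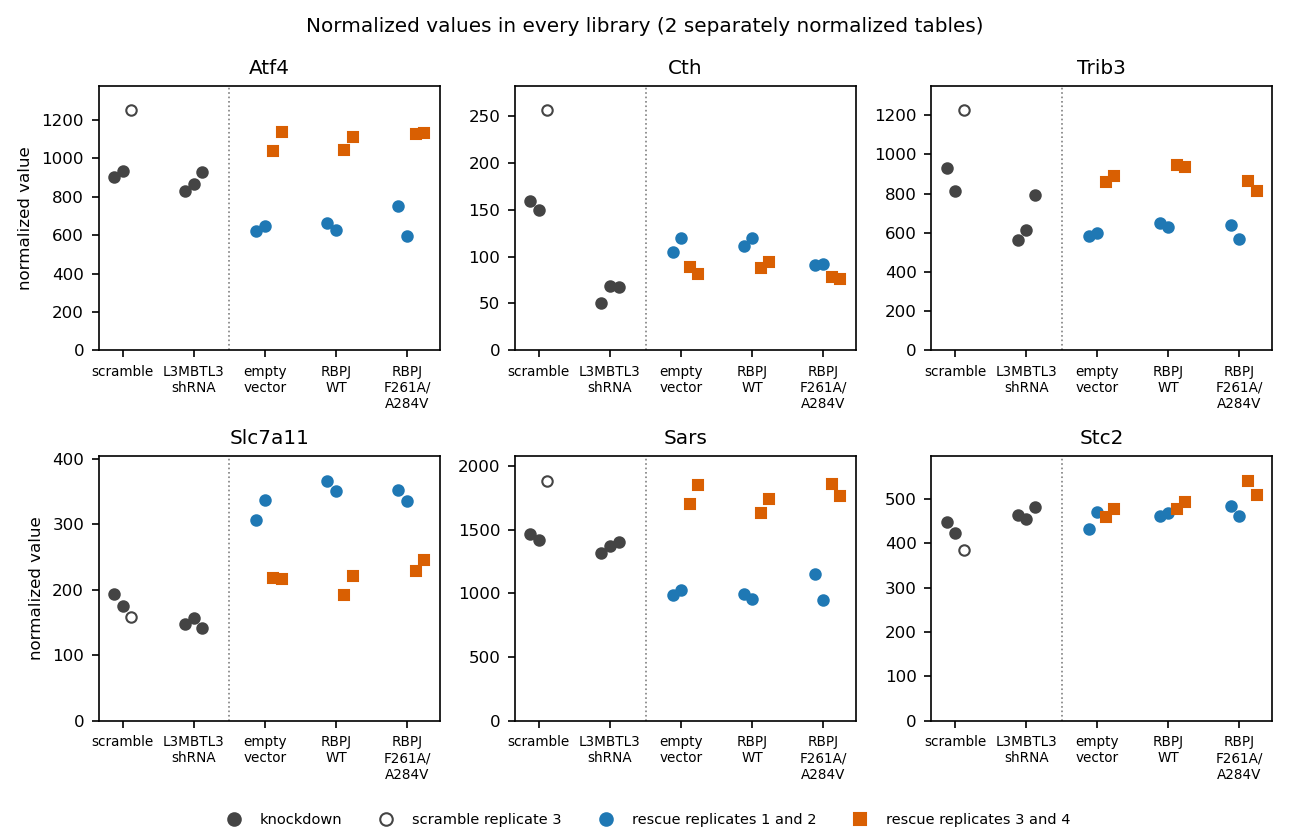
Normalized values of 6 members in every library, with knockdown libraries left of the dotted line and rescue libraries right of it; the tables were normalized separately, so levels are not compared across the line. Atf4, Trib3 and Sars split by replicate number within each rescue group, Slc7a11 splits the other way, Cth is lower in all hairpin libraries, and Stc2 stays between 385 and 542.

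Depth and level moved with this divide. Replicates 3 and 4 were the shallower libraries, and genes of higher level were higher there in general. The median difference over all genes was -0.29 below a mean of 200, 0.03 from 200 to 800, 0.18 from 800 to 1600 and 0.27 from 1600, and that of the members in the same ranges was -0.20 (3 members), 0.15, 0.49 and 0.58. The members together took 0.62% to 0.67% of all reads in replicates 1 and 2 and 0.793% to 0.822% in replicates 3 and 4. Within replicates 1 and 2, the shallowest library, mutant replicate 1, was the highest of the 6 for 31 of 42 members (35.7% of all genes) and the lowest for 4, Atf3, Cth, Pycr1 and Chac1 (20.4% of all genes). The part of depth in the divide was not tested.

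**Figure D5:**
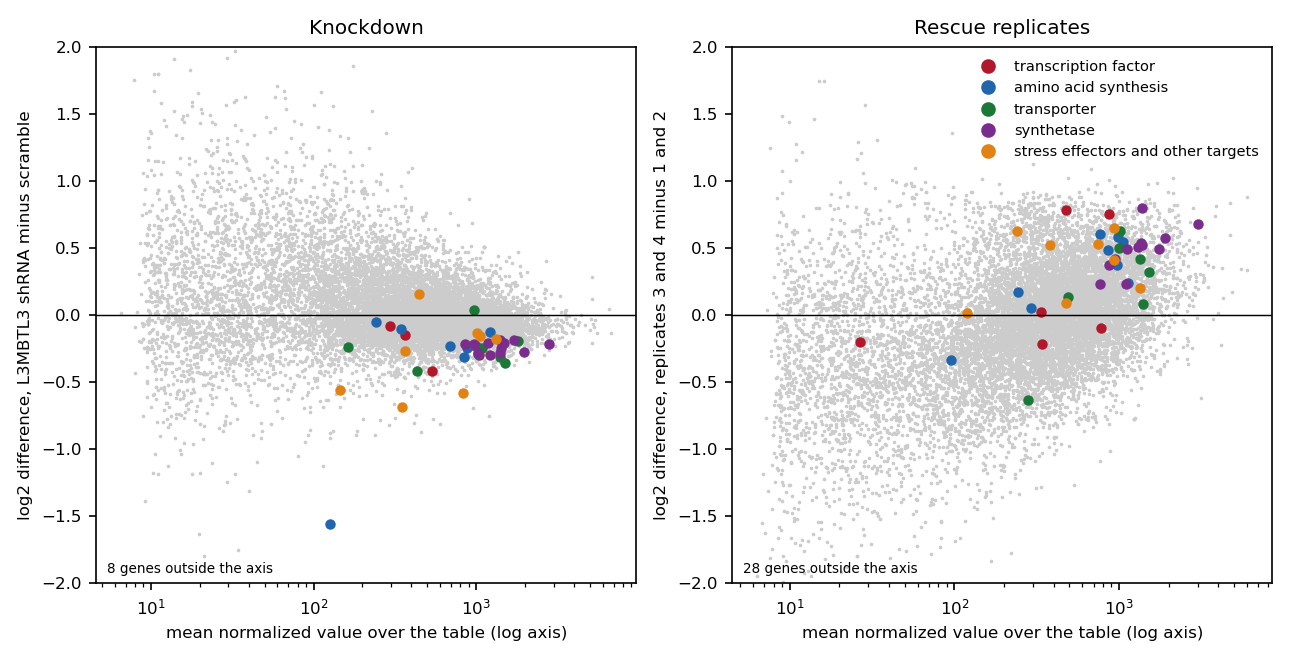
Each grey point is a tested gene, placed by its mean normalized value over the table (log axis) and its log2 difference with the hairpin (left) or in rescue replicates 3 and 4 against 1 and 2 (right); members are coloured by class. Most members lie below the cloud's centre on the left and above it on the right at the same level, and the cloud itself rises with level on the right, from -0.29 to 0.27 in the median.

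The other lists were read across the divide beside the 26.2% of all genes that were entirely higher in replicates 3 and 4 and the 21.3% that were entirely lower. Of 18 genes of the ATF6 and XBP1 branches, 15 were entirely higher and 0 lower (median 0.59), and all 8 cytosolic synthetases outside the module were higher (median 0.46). Of the 16 genes of the eIF2 list, 9 were higher and 2 lower (median 0.22). The remaining lists had shares closer to those of all genes or below them: 6 higher and 3 lower of 18 cell cycle genes (median 0.20), 5 and 1 of 12 NRF2 genes (median 0.07), 4 and 2 of the 17 other folate, serine and methionine cycle genes (median -0.02), and 2 and 2 of the 17 mitochondrial synthetases (median -0.02).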

How the data were processed

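RNA was sequenced from 18 libraries (6 knockdown, 12 rescue), stranded and ribosome-depleted per the labels' protocols. The authors deposited 1 table of normalized signal per experiment; TopHat2 2.1.1, the mm9 build and DESeq2 1.24.0 are named per the submitters' processing notes, while the sources used here name no counter, annotation or use of strand. The deposited signal values were gene counts divided by 1 size factor per library: 100% were whole multiples of 1 read within 0.1 read. The tables were normalized separately, so tests stayed within a table.

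Log2(value + 1) of genes with a value of at least 10 in at least 3 (knockdown) or 4 (rescue) libraries went into limma-trend (limma 3.58.1 in R 4.3.3, 2-sided tests) by group alone, the 3 rescue groups sharing 1 fit. A call means a p under 0.05 after Benjamini-Hochberg adjustment over every gene in the test; adjusted p are limma's unless another tool is named. Fold changes on this scale understate those of low genes. edgeR 4.0.16 and DESeq2 1.42.0 on recovered reads, other scalings, filters and pseudocounts, leaving out libraries, a replicate term and a term for replicates 1 and 2 against 3 and 4 were alternatives. Only the limma fit by group alone was also run on simulated counts with known changes, which held no replicate effect and no divide. The labels name no separate cultures, so the p-values reflect the spread among these samples alone, and that may be technical.

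Within 3 pairs of rescue libraries (mutant 3 and 4, RBPJ WT 1 and 2, empty vector 1 and 2) counts differed less than sampling noise (chi-square over degrees of freedom 0.823, 0.721 and 0.859; other rescue pairs 1.06 to 17). Counted as 1 sample each, they leave n = 3 per group; since the merged pairs lie on different sides of the divide, values are given per library and no merged group means are set side by side. Rescue differences and intervals are from all 4 libraries per group unless merging is named. Same-numbered libraries deviated together from their group means (correlation 0.24 to 0.54 in the knockdown, others -0.47 to 0.33; 0.55 to 0.82 in the rescue, others -0.76 to 0.83, following the divide), so paired values stand beside results they change.

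The members and lists were chosen with earlier results of these data known. Named were Atf4, every member called in a comparison or its paired fit, the 2 largest differences and the highest member of each class, and called or leading genes of other lists; further members were chosen by role after their values were seen. Exon lengths and overlaps are from GENCODE vM21 (GRCm38), promoters from RefSeq; Cth, Slc7a5, Slc1a5, Cars, Lars, Nars, Wars and Eif4ebp1 had no promoter entry. Paired calls of the mitochondrial synthetases are not reported here.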

Additional observations from a re-analysis of the deposited data

How the results depend on the processing

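The 4 members called in the knockdown became 10 with DESeq2, 15 with quantile scaling, 31 with the replicate block, and, in settings chosen after seeing the data, 9 with cyclic loess scaling and 30 with that scaling and the replicate block; all were lower. Leaving out 1 library gave 0 to 14. edgeR gave 5, and other filters and pseudocounts 3 or 4. Over all genes the 385 calls became 655 with DESeq2, 596 with cyclic loess, 909 with quantile scaling and 2575 with the replicate block. They became 2667 with the replicate block and cyclic loess scaling, 472 with edgeR and 257 to 452 with other filters and pseudocounts. Leaving out 1 library gave 0 to 1032. In the rescue, the 0 members called stayed 0 with the replicate block and when any 1 library was left out; for the mutant against RBPJ WT, the term for the divide gave 1 (Pycr1), that term with cyclic loess scaling 3 (Pycr1, Sesn2 and Trib3) and the replicate block with cyclic loess scaling 1 (Trib3). Over all genes the 29, 2 and 37 calls of the 3 comparisons became 283, 81 and 598 with that term and 60, 7 and 78 with DESeq2, and the last 2 became 76 and 554 with the replicate block. For the mutant against RBPJ WT, the count over all genes with the replicate block and cyclic loess scaling is not reported here. The causes of these changes were not tested. Across the divide, 25 members were entirely higher in replicates 3 and 4 with quantile scaling (median 0.26) and 26 with cyclic loess scaling (median 0.25). The shares of all genes under these 2 scalings are not reported here, so the 2 counts have no background beside them. Atf3, Cbs and Vldlr had low counts or no reads, and the part of depth in this was not tested.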
